A study of Mus musculus with 10 samples.

Results

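The 42 genes described here encode the machinery that shortens, removes and reads the poly(A) tail and that degrades mRNA. They were taken by name from a list of deadenylases, poly(A) polymerases, decapping factors and exonucleases with their cofactors, and all 42 had reads among the 13272 genes detected. The samples were P19 cells, a mouse embryonal carcinoma line kept undifferentiated and labelled wild type, so all groups come from 1 cell line. Control cells received a pool of scrambled siRNAs (siCtl) and knock-down cells an siRNA against Larp1 (siLarp1). RNA was taken 24 h after transfection (3 libraries per treatment) or at 48 h, after a second transfection at 24 h (2 libraries per treatment). Native poly(A) RNA was read from its 3′ end by Nanopore direct RNA sequencing, so that 1 read stands for 1 mRNA molecule and carries its own tail length. In such bulk RNA, fewer cells with a transcript cannot be told apart from less of it per cell.

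Most mRNAs leave the nucleus with a long poly(A) tail made by poly(A) polymerases. In the cytoplasm the tail is trimmed by the PAN2-PAN3 and CCR4-NOT deadenylase complexes while poly(A)-binding protein covers what is left. Once the tail is short, the LSM1-7 ring and PATL1 promote removal of the cap by DCP2, and XRN1 degrades the body from the 5′ end, while the exosome degrades it from the 3′ end. LARP1 is an RNA-binding protein known for binding the cap and 5′ end of mRNAs of the translation machinery (TOP mRNAs) and for association with poly(A)-binding protein.

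Larp1, the siRNA target, had 22, 29 and 36 reads in the siCtl libraries and 4, 6 and 3 in the siLarp1 libraries at 24 h, or 76.0, 84.3 and 85.1 against 33.4, 44.9 and 19.1 reads scaled to 1000000 kept reads per library (RPM). At 48 h it stood at 169 and 123 RPM against 18.5 and 24.9 RPM. The groups did not overlap at either time, and over both times its log2 fold change was -1.84 ± 0.34 (SE, limma, adjusted p = 0.0024). The libraries held 112676 to 423247 kept reads, and at 24 h the siLarp1 libraries were the shallower ones, with 119830 to 157012 reads against 289635 to 423247. The treatments were pooled and sequenced apart from each other at 24 h, so at that time an effect of the pool and one of the siRNA cannot be told apart. All 4 libraries of 48 h shared 1 pool. Of the pluripotency markers Pou5f1 was abundant, at 2278 to 3029 RPM, whereas Zfp42 was listed at 0 in every library and Dppa5a had 8 reads in all. The neural markers summed to 26.6 to 90.1 RPM over the libraries, with Neurod1 at 0. The mesoderm marker T was detected in every library, at 20.3 to 390.0 RPM, and the summed mesoderm and endoderm markers were higher at 48 h (142 to 390.0 RPM) than at 24 h (23.2 to 82.8 RPM), while Sox17 and Afp were at 0. The part of this difference between times in the values below was not tested.

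The decay genes were sparsely read, and their levels spanned a wide range. Together they held 3907 reads, or 0.191% of all kept reads, with a median of 70.5 reads per gene over the 10 libraries. Because 1 read is 1 molecule, RPM compares genes without a correction for length. Paip2, a repressor of translation that binds poly(A)-binding protein, was the highest at 210.3 RPM (± 39.8, SD, n = 10) and ranked 635th among all genes. Cnot1, the scaffold of CCR4-NOT, followed at 124 RPM ± 18.9, and Exosc4, an exosome ring subunit, at 104 RPM ± 35.7. Paip2 lay above Cnot1 in every library, whereas the spread of Cnot1 and Exosc4 overlapped.

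At the other end, 13 genes had fewer than 30 reads in all 10 libraries. These were the decapping cofactors Dcp1b (6 reads), Dcp1a (12) and Patl1 (21), the nuclear poly(A)-binding protein Pabpn1 (7), the exonuclease Xrn1 (9), the deadenylases Pan3 (10), Pan2 (11) and Cnot6l (11), the poly(A) polymerase Papolg (12), the antiproliferative adaptors Tob2 (13), Btg2 (14) and Tob1 (17), and the ubiquitin ligase subunit Cnot4 (19). The main tests, which required 30 reads, leave these genes out. A refit of level without a minimum of reads took in genes below it, and no decay gene passed there either. So few reads cannot show that a level stayed the same.

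Within role groups the reads were unevenly shared. Of the 2 genes for enzymes that degrade RNA from the 5′ end, nuclear Xrn2 had 111 reads against the 9 of cytoplasmic Xrn1. Among the catalytic subunits of CCR4-NOT, Cnot8 (139 reads), Cnot7 (116) and Cnot6 (88) were each read more often than Cnot6l. The 9 exosome genes alone gave 1517 reads, 38.8% of the total, with 226 for Exosc4, 204 for Exosc3, 193 for Exosc8, 183 for Exosc2, 178 for Exosc7, 163 for Exosc9, 158 for Exosc5, 135 for Exosc1 and 77 for the nuclease Exosc10. The remaining genes were the CCR4-NOT subunits Cnot2 (138), Cnot11 (96), Cnot3 (62) and Cnot10 (56), the poly(A) polymerase Papola (152) and the terminal uridylyltransferase Tut1 (31), the decapping factors Lsm1 (130), Edc3 (83), Ddx6 (64), Dcp2 (56) and Edc4 (40), the translation cofactor Paip1 (87), the deadenylase Parn (48) and the adaptor Btg1 (35). The plot of levels by library shows this order for both times and treatments.

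**Figure D1:**
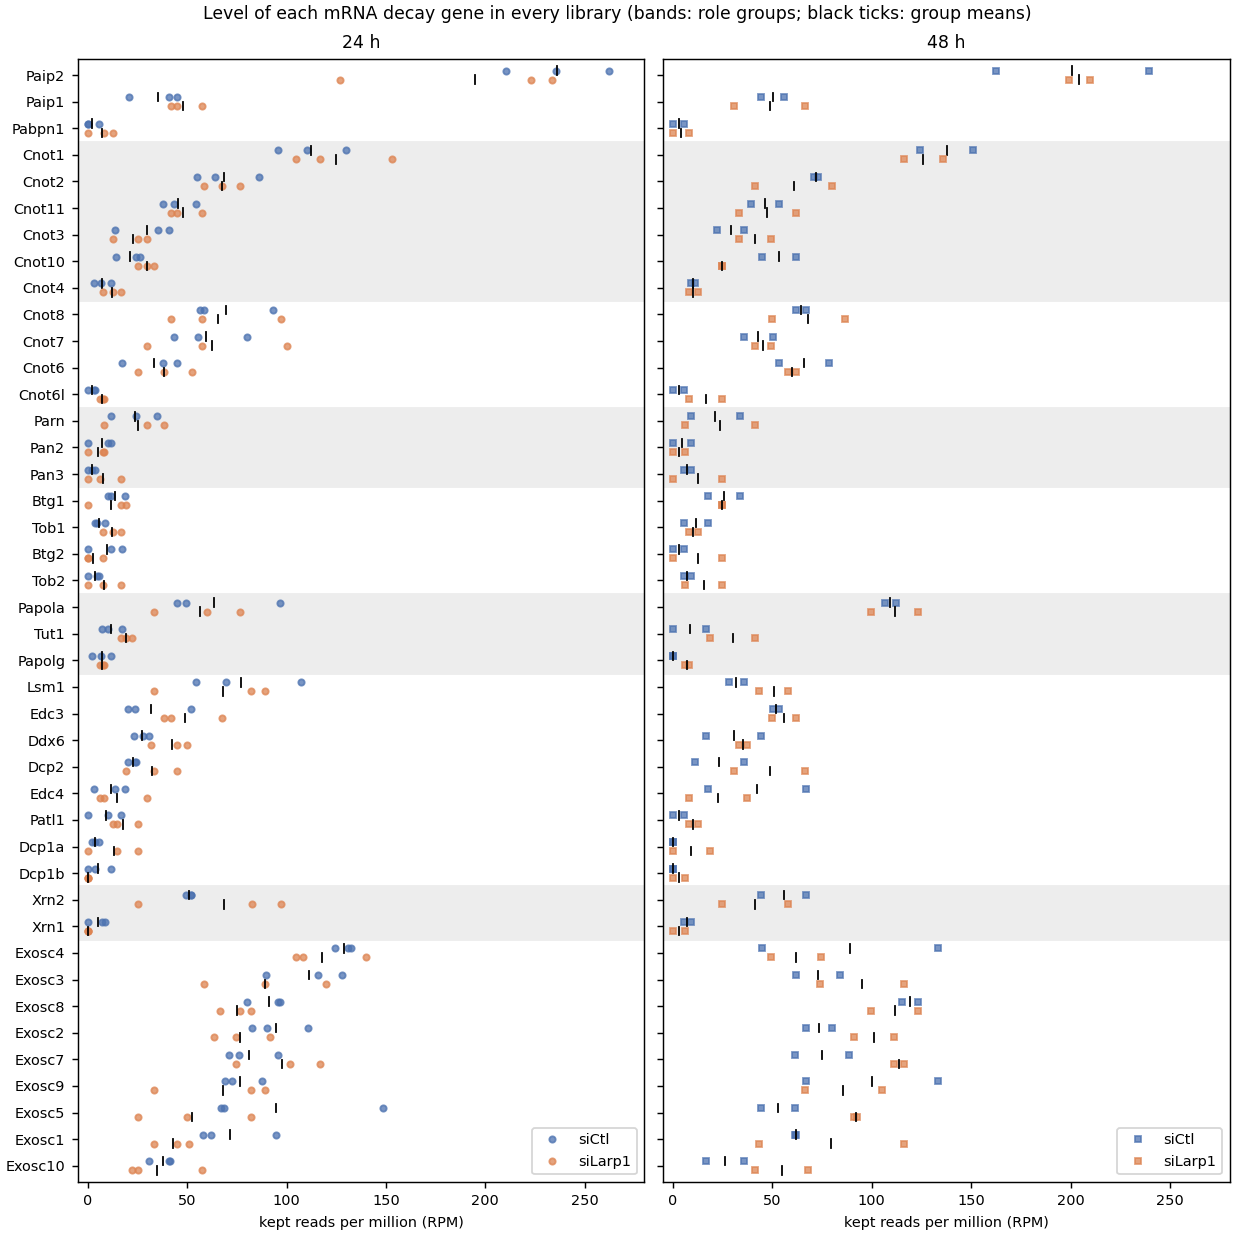
Level of each of the 42 genes in every library, in RPM, at 24 h (left; circles, 3 libraries per treatment) and 48 h (right; squares, 2 per treatment). Blue points are siCtl, orange points siLarp1, black ticks group means, and shaded bands set off the role groups; Paip2 is the highest gene, at 127 to 262 RPM.

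Most reads of these genes lay on transcripts annotated as protein coding (3557 of 3907, 91.0%), and 244 reads (6.25%) were assigned to transcripts annotated as targets of nonsense-mediated decay. Papola gave more of the latter than any other gene, and its transcript ENSMUST00000169938.7 (mm10, chr12:105784743-105838944) took 108 of its 152 reads. Others lay on single transcripts of Cnot1 (38 reads), Edc3 (37) and Cnot2 (28). At 24 h this class held 44 of 64 Papola reads in siCtl and 17 of 24 in siLarp1, that is 68.8% and 70.8%, and at 48 h it held 87.5% and 71.9%. The assignment to a transcript of a gene is uncertain where the mapping quality is 0, which held for 99.1% of the reads on the most read Cnot1 transcript (chr8:95719458-95807464) and for none of the reads of Lsm1 (chr8:25785288-25803975) or Xrn2 (chr2:147012996-147078000). Values per gene do not depend on which transcript was chosen.

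To ask whether Larp1 knock-down changed the level of decay genes, log2 RPM was fitted with limma (voom) across all genes with at least 30 reads in the libraries compared. None of the 26 genes that could be tested at 24 h, of the 15 at 48 h or of the 29 over both times passed an adjusted p of 0.05, with lowest adjusted p-values of 0.868, 0.882 and 0.826. Over all genes 0% of 4800 passed at 24 h, 0% of 2704 at 48 h and 0.12% of 5857 over both times. At an unadjusted p below the same threshold, the limma fit gave 1 of the 26 at 24 h (168 higher and 101 lower among all 4800), 0 of the 15 at 48 h (70 higher and 65 lower of 2704) and 1 of the 29 over both times (217 higher and 129 lower of 5857). A limma fit of log2(RPM + 1) without voom also called 0 decay genes in each comparison. The median log2 fold change of the decay genes was 0.01 at 24 h and 0.06 at 48 h, beside 0.01 and 0.03 over all genes tested. At 24 h the 95% interval lay within a 2-fold change in either direction for 15 of the 26 genes, and within a 4-fold change for all 26. At 48 h these counts were 5 and 15 of 15. The plot of fitted changes shows these intervals.

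**Figure D2:**
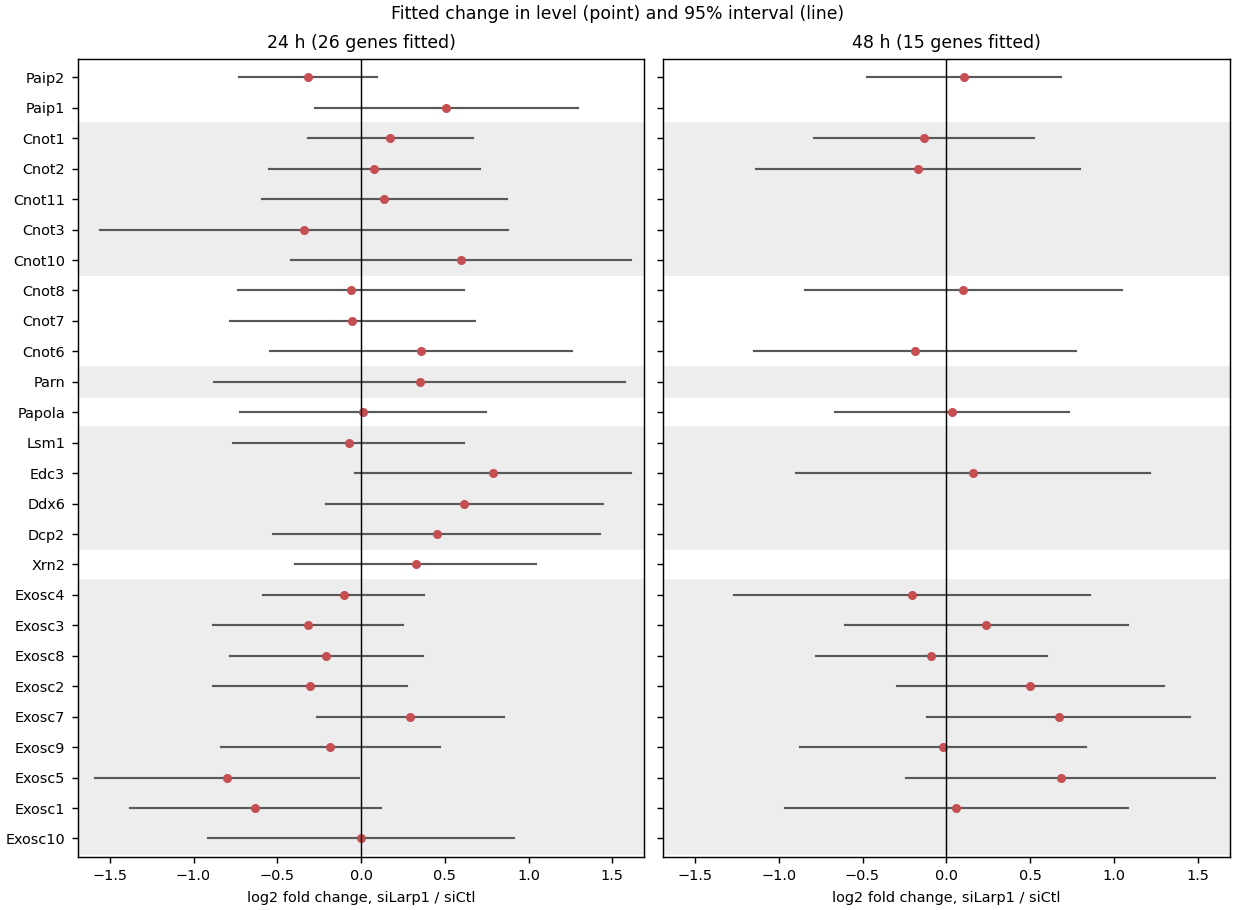
Fitted log2 fold change in level, siLarp1 over siCtl, for the 26 decay genes tested at 24 h (left) and the 15 tested at 48 h (right). Points are the estimates and lines their 95% intervals from limma; at 24 h all intervals but that of Exosc5 cross 0.

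Among genes that act on the tail itself, Paip2 was at 211, 235 and 262 RPM in siCtl and at 234, 127 and 223 RPM in siLarp1 at 24 h. At 48 h it was at 239.6 and 162 RPM against 209.9 and 199 RPM. The groups overlapped at both times, and the log2 fold change was -0.32 ± 0.20 (SE) at 24 h and 0.11 ± 0.28 at 48 h. Papola, the main nuclear poly(A) polymerase, stood at 96.7, 49.4 and 44.9 RPM against 33.4, 59.8 and 76.4 RPM at 24 h. Both treatments were higher at 48 h, at 107 and 112 RPM against 123 and 99.6 RPM, again with overlap between siCtl and siLarp1. Tut1, which adds uridines and adenines to RNA ends, was the gene with an unadjusted p under 0.05 over both times, with a log2 fold change of 1.12 ± 0.52 (adjusted p = 0.826). It rested on 31 reads: 3, 6 and 3 in siCtl and 2, 3 and 3 in siLarp1 at 24 h, then 0 and 3 against 3 and 5 at 48 h.

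Cnot1 was among the most evenly measured genes. Its level was 110.5, 95.9 and 129.9 RPM in siCtl and 117, 105 and 153 RPM in siLarp1 at 24 h, and 124 and 151 RPM against 136 and 116 RPM at 48 h. The 95% interval of its log2 fold change ran from -0.32 to 0.67 at 24 h, and at 48 h its bounds were -0.79 and 0.52, so a 2-fold change in either direction lay outside it at both times. Cnot8, a catalytic deadenylase subunit (chr11:58104153-58118594), stood at 58.7, 93.0 and 56.7 RPM against 41.7, 97.2 and 57.3 RPM at 24 h and at 62.1 and 67.2 RPM against 86.4 and 49.8 RPM at 48 h. Its groups overlapped at both times as well.

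Parn, a deadenylase that trims small RNAs and some mRNAs (chr16:13537960-13668170), had 1 to 12 reads per library, at 24.2, 34.9 and 11.8 RPM against 8.35, 29.9 and 38.2 RPM at 24 h and 8.88 and 33.6 RPM against 6.17 and 41.5 RPM at 48 h. Btg1, which recruits CCR4-NOT to mRNAs (chr10:96617006-96622809), had 0 to 8 reads per library and lay at 10.4, 11.6 and 18.9 RPM against 16.7, 0 and 19.1 RPM at 24 h. The 48 h values were 17.8 and 33.6 RPM against 24.7 and 24.9 RPM. At such counts the spread between libraries of 1 group was as wide as the distance between groups.

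In the decapping group, Lsm1, a subunit of the ring that binds short-tailed mRNA, was at 107, 69.7 and 54.3 RPM in siCtl and 33.4, 82.3 and 89.2 RPM in siLarp1 at 24 h, and the lowest and highest values of both groups interleaved. At 48 h its values were 35.5 and 28.0 RPM against 43.2 and 58.1 RPM. Ddx6, the helicase that links CCR4-NOT to decapping, did not overlap at 24 h, with 27.6, 23.2 and 30.7 RPM against 50.1, 44.9 and 31.8 RPM, but its log2 fold change of 0.62 ± 0.41 did not pass the test (adjusted p = 0.945). Its groups overlapped at 48 h, at 44.4 and 16.8 RPM against 37.0 and 33.2 RPM. Edc3, a decapping enhancer, had a log2 fold change of 0.79 ± 0.41 at 24 h (95% interval -0.04 to 1.61). For the 4 decapping genes tested at 24 h the estimate was above 0 for 3, and summed over the group the level was 242, 154 and 170.1 RPM in siCtl against 217, 299 and 197 RPM in siLarp1, which overlap. At 48 h the sum was 186 and 179 RPM in siCtl against 247 and 224 RPM in siLarp1, without overlap.

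Xrn2 (51.8, 49.4 and 52.0 RPM in siCtl at 24 h) varied far more in the siLarp1 libraries, at 25.04, 97.2 and 82.8 RPM, from 3, 13 and 13 reads. The groups did not separate at 48 h either, at 44.4 and 67.2 RPM against 24.7 and 58.1 RPM.

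The summed exosome level lay on opposite sides of the controls at the 2 times, but no single gene passed the test. The sum was 791, 779 and 791 RPM in siCtl and 584, 688 and 694 RPM in siLarp1 at 24 h, without overlap, and 754 and 588 RPM against 778 and 813 RPM at 48 h, again without overlap and in the other direction. At 24 h 7 of the 9 genes had an estimate below 0 (median log2 fold change -0.21), and at 48 h 5 of 8 had one above 0 (median 0.15). The gene with the widest difference in mean level at both times was Exosc5, a ring subunit. It was at 148, 66.8 and 68.5 RPM against 50.1, 82.3 and 25.5 RPM at 24 h (log2 fold change -0.80 ± 0.39, adjusted p = 0.868) and at 44.4 and 61.6 RPM against 92.6 and 91.3 RPM at 48 h (0.68 ± 0.44, adjusted p = 0.882). Its 24 h groups overlapped, and its difference between the times, a log2 change of 1.52 ± 0.61, did not pass either (adjusted p = 0.972). In that test of the difference between times none of the 29 decay genes passed (1 at an unadjusted p under 0.05), beside 0% of 5857 genes (129 higher and 125 lower without adjustment). The separation of the sums depended on single genes. Without Exosc5 the groups overlapped at both times, with 642, 712 and 723 RPM against 534, 606 and 669 RPM at 24 h and 710.0 and 526 RPM against 685 and 722 RPM at 48 h, which left differences of means of -89.5 and 85.4 RPM. Without Exosc2 or without Exosc10 they overlapped at 48 h, while leaving out any other exosome gene kept the separation at both times. The 48 h difference of all 9 genes, 124.4 RPM, rests on few libraries, as it was 41.1 RPM without siCtl library 25 and 208 RPM without siCtl library 24. Exosc4 (chr15:76327397-76330677) was at 124, 131 and 132 RPM against 108, 105 and 140.1 RPM at 24 h and at 133 and 44.8 RPM against 49.4 and 74.7 RPM at 48 h, overlapping at both times.

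Counted by separation of the libraries alone, few decay genes stood apart and none did so at both times. At 24 h 1 of 26 (Ddx6) lay above all siCtl libraries, beside 4.69% of 4800 genes, and 1 (Exosc1) below them, beside 6.19%. At 48 h, with 2 libraries per group, 3 of 15 (Exosc2, Exosc5 and Exosc7) lay above, beside 18.2% of 2704 genes, and none below, beside 15.9%. Over both times 0 of 15 separated in the same direction, where 1.48% of 2698 genes were higher and 1.7% lower. Summed over all 42 genes, the level was 1940.4, 1857 and 1909 RPM in siCtl and 1719, 1877 and 1943 RPM in siLarp1 at 24 h. At 48 h it was 1961 and 1825 RPM against 2086 and 2083 RPM, with no overlap. Its mean difference at 48 h, 191 RPM, was 123 RPM without siCtl library 25, and the one at 24 h, -55.8 RPM, was 7.74 RPM without siLarp1 library 19.

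Tail length varied widely among the decay mRNAs. Over all 10 libraries, 23 of the genes had at least 60 reads, and their median tails ran from 86.9 nucleotides (nt) for Exosc2 to 134 nt for Cnot1. The median of these medians was 103 nt, beside 105 nt for 3917 other genes with as many reads, whose quartiles were 97.8 and 115 nt. Long tails were found on Cnot1, Ddx6 (133 nt), Paip1 (132 nt) and Papola (124 nt), each longer than those of 96.9%, 96.3%, 95.7% and 90.2% of the other genes. Short ones were found on Exosc2, Exosc4 (90.5 nt), Exosc8 (91.6 nt) and Exosc3 (92.9 nt), longer than those of 4.26%, 8.27%, 10.3% and 12.6% of the other genes. The exosome genes were not uniform, since Exosc1 had a median of 113 nt and Exosc7 of 107 nt. Within every gene the spread between molecules was wide, with quartiles of 87.1 and 184 nt for Cnot1 and of 55.9 and 133 nt for Exosc2.

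**Figure D3:**
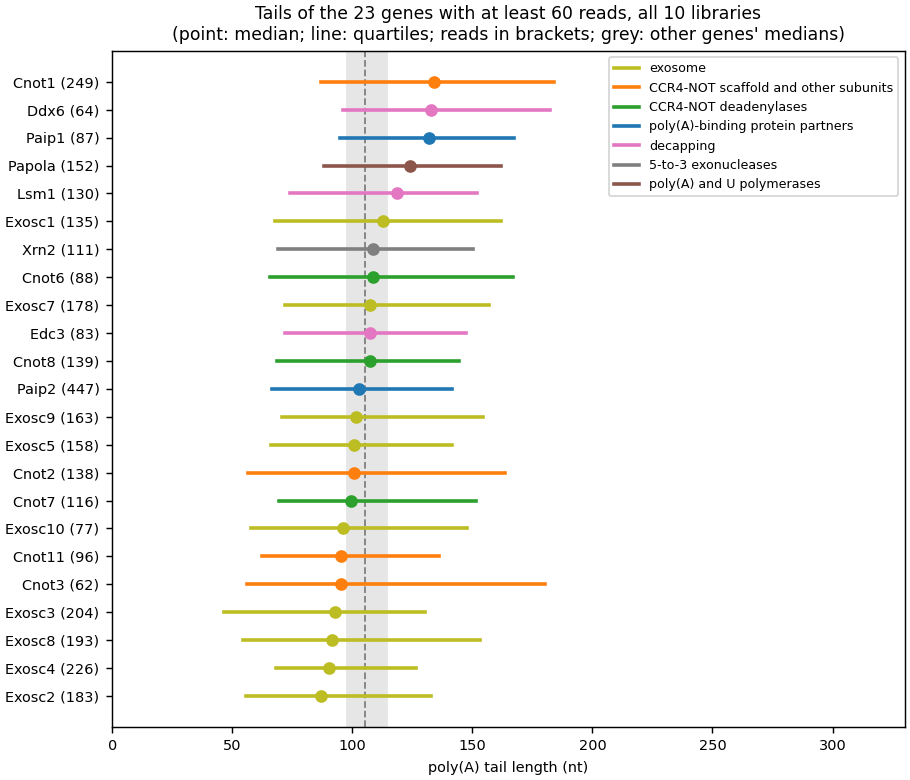
Poly(A) tail length in nt of the 23 decay genes with at least 60 reads, over all 10 libraries. Points are medians and lines run from the lower to the upper quartile, coloured by role group, with read numbers in brackets; the dashed line and grey band are the median and quartiles of the medians of 3917 other genes, and Cnot1 at 134 nt and Exosc2 at 86.9 nt are the ends of the order.

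Between the most read genes of the role groups, part of this order held library by library. Paip2 had a shorter median tail than Cnot1 and than Papola in 10 of 10 libraries, and Exosc4 a shorter one than Papola in 10 of 10. Cnot1 was longer than Exosc4 in 9 of 10 libraries and shorter than Papola in 7 of 10. By contrast Paip2 was longer than Cnot8 in 5 of 10 libraries and than Exosc4 in 6, so that these neighbours did not differ beyond their spread. The sparsely read adaptors had medians of 158 nt for Tob1 (17 reads), 153 nt for Btg2 (14 reads), 140.1 nt for Btg1 (35 reads) and 122 nt for Tob2 (13 reads). Long medians were not particular to them among sparsely read genes, with 150 nt for Cnot6l (11 reads) and 146 nt for Patl1 (21 reads).

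No decay gene passed the test for a difference in median tail. The median tail per library was fitted with limma, weighted by reads, and 0 of 26 genes passed at 24 h (0% of 4492 genes), 0 of 15 at 48 h (0% of 2660) and 0 of 24 over both times (0.0564% of 3546). The limma fit gave 1 gene at an unadjusted p below the threshold in each comparison, namely Cnot6 at 24 h (160 higher and 100 lower among all genes), Exosc9 at 48 h (111 and 48) and Exosc10 over both times (142 and 73). The estimates lay above 0 for 18 of the 26 genes at 24 h, with a median difference of 5.92 nt beside 1.81 nt over all genes tested, and for 7 of 15 at 48 h, with a median of -0.96 nt beside 2.85 nt. The half-width of the 95% interval had a median of 33.1 nt at 24 h (18.7 to 51.9 nt over the genes) and 40.9 nt at 48 h (26.5 to 50.2 nt). An estimate smaller than the half-width of its own gene left 0 inside the interval. The size of shift that could be told from 0 at this depth thus differed between genes. The difference between the times was not past the test for any of 24 genes either (0% of 3546; lowest adjusted p = 0.875).

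**Figure D4:**
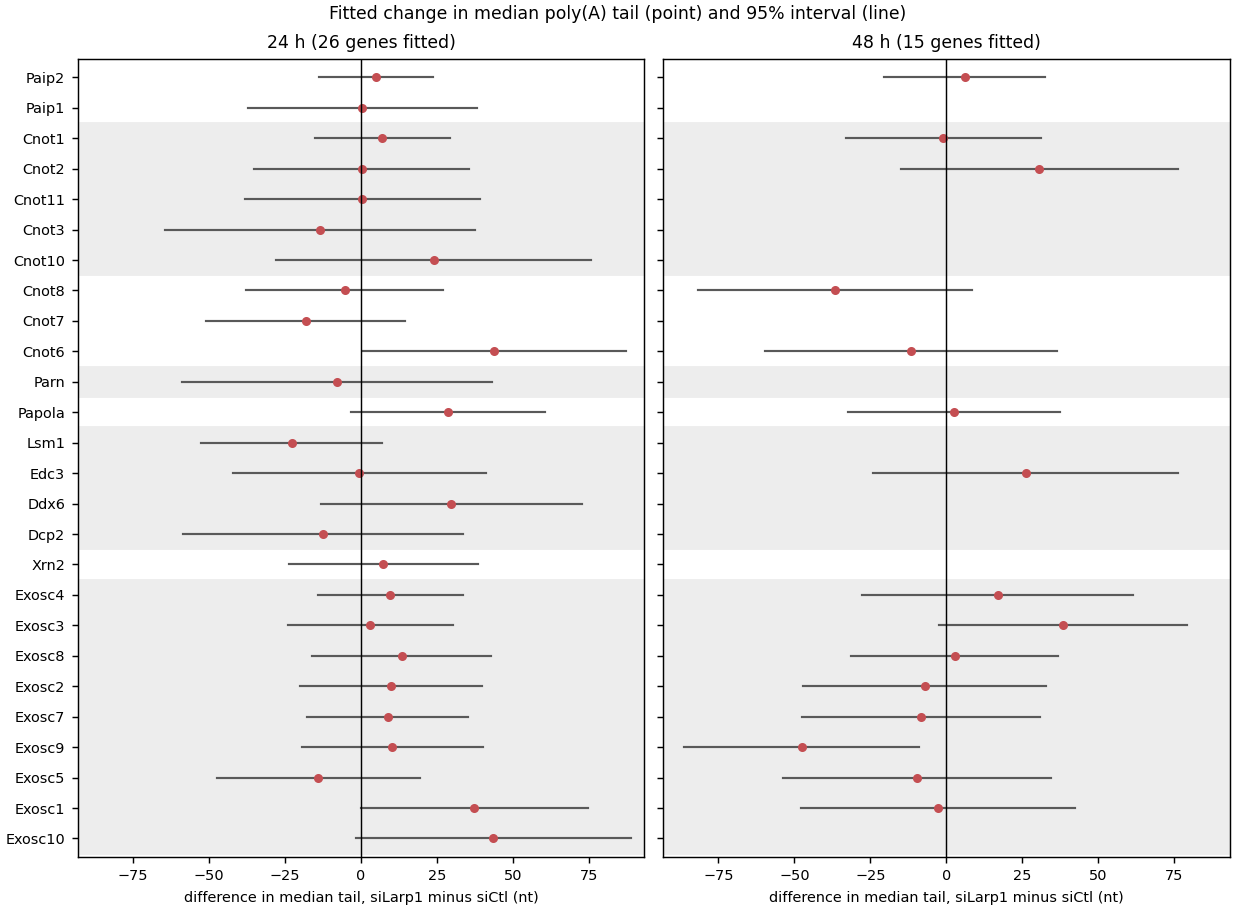
Fitted difference in median poly(A) tail, siLarp1 minus siCtl in nt, for the 26 decay genes tested at 24 h (left) and the 15 tested at 48 h (right). Points are the estimates and lines their 95% intervals from limma; at 24 h 18 points lie above 0, and only the intervals of Cnot6 at 24 h and of Exosc9 at 48 h leave out 0.

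Papola, the poly(A) polymerase, was 1 of 2 genes with longer median tails in all siLarp1 libraries at 24 h. Its median tail was 124, 123 and 115 nt in siCtl and 152, 150.0 and 148 nt in siLarp1, with no overlap, although the siLarp1 values rest on 4, 8 and 12 reads. The fitted difference was 28.6 nt ± 15.7 (SE, adjusted p = 0.846), and at 48 h the groups overlapped, at 105 and 128 nt against 118 and 128 nt.

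Cnot6, a catalytic deadenylase subunit, was the other such gene, at 95.6, 98.2 and 70.6 nt against 108, 101 and 171 nt (43.9 nt ± 21.3, adjusted p = 0.832). At 48 h its values were 156 and 108 nt against 142 and 66.3 nt. Lsm1 was shorter in all siLarp1 libraries at 24 h, at 131, 135 and 124 nt in siCtl and 71.2, 113 and 113 nt in siLarp1 (-22.9 nt ± 14.6, adjusted p = 0.884), and overlapped at 48 h, at 117 and 104 nt against 90.9 and 113 nt. Thus 2 of 26 genes separated upward, beside 6.61% of 4677 genes, and 1 downward, beside 5.11%.

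At 48 h 1 of 15 genes separated upward (Exosc4, at 85.4 and 82.3 nt against 115 and 89.1 nt), beside 20.9% of 2704 genes. Downward, 3 separated (Cnot8, Exosc5 and Exosc9), beside 12.9%. Cnot8 was at 164 and 122 nt against 105 and 91.5 nt, after 118, 84.1 and 107 nt against 132, 76.4 and 98.8 nt at 24 h. No gene separated in the same direction at both times (0 of 15, beside 1.56% of 2696 genes upward and 0.779% downward).

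Cnot1, Paip2 and Xrn2 overlapped at both times, and Exosc4 at 24 h. Cnot1 had medians of 134, 141 and 138 nt in siCtl and 139.6, 149 and 145 nt in siLarp1 at 24 h, a fitted difference of 7.04 nt ± 10.9. At 48 h its tails were shorter in both treatments, at 95.6 and 119 nt against 108 and 113 nt, so that its libraries separated by time and not by treatment. The pooled reads of all other genes had medians of 102 to 104 nt at 24 h and of 97.1 and 98.6 nt at 48 h in siCtl, and of 101 to 104 nt and of 97.7 and 103 nt in siLarp1, and the times were sequenced in different pools. Paip2 was at 84.8, 104 and 109 nt against 115, 90.2 and 107 nt at 24 h, and at 81.7 and 113 nt against 104 and 103 nt at 48 h. Exosc4 was at 108, 90 and 80.7 nt against 119, 88.0 and 97.4 nt at 24 h. Xrn2 was at 112, 100.4 and 91.7 nt against 95.4, 107 and 111 nt at 24 h, and at 46.6 and 136 nt against 119 and 111 nt at 48 h. Parn, with 1 to 12 reads per library, ranged from 33.3 to 153 nt and overlapped at both times. Btg1 was at 198, 147 and 126 nt in siCtl and at 116 and 63.1 nt in the 2 siLarp1 libraries that had reads at 24 h, all below siCtl but from 2 and 3 reads. Its values at 48 h, 126 and 181 nt against 179 and 103 nt, overlapped.

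Tails were also sorted into 2 classes, those of 30 to 90 nt, centred on 60 nt, and those under 30 nt, the short tails from which decapping is known to start. The share of each class per gene was tested with a quasi-binomial model across all genes. For the 30 to 90 nt class 0 of 26 decay genes passed at 24 h (0.134% of 4492 genes), 0 of 15 at 48 h (0% of 2660) and 0 of 24 over both times (0.282% of 3546) or in the difference between times (0%). For the class under 30 nt the counts were again 0 of 26, 0 of 15, 0 of 24 and 0 of 24, beside 0% of all genes in each comparison. At an unadjusted p under 0.05 only the combined times gave genes of the list, 3 of 24 in the shortest class, beside 140 higher and 22 lower among all 3546 genes. They were Cnot8 with a higher share and Exosc2 and Exosc3 with lower ones (quasi-binomial model, adjusted p = 0.919 for each). Only 2.16% of the 139 Cnot8 reads were this short, and its fitted log2 odds ratio of 29.9 is too extreme to give a size.

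Because single genes have few short tails, the reads of all 42 genes were also pooled within each library, which describes the list and is not a test. Tails under 30 nt were found on 153 of the 3907 reads (3.92%), and 14 of the genes had none. They fell mainly on exosome mRNAs, which held 89 of them in 1517 reads (5.87%), against 64 in the 2390 reads of the other decay genes (2.68%). Exosc3 alone had 21 in 204 reads (10.3%), Exosc8 14 in 193 and Exosc2 13 in 183, whereas Paip1 had 0 in 87 and Cnot1 4 in 249.

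At 24 h the pooled share under 30 nt was 3.20%, 5.32% and 3.71% in siCtl and 2.91%, 1.99% and 2.30% in siLarp1, a lower share without overlap (means 4.08 ± 1.10 against 2.40 ± 0.469, SD, n = 3). These shares rest on 18, 34 and 30 short tails in siCtl and on 6, 5 and 7 in siLarp1. Single reads therefore decide whether the groups overlap. The mean difference of -1.68 percentage points was -1.06 without siCtl library 21. In the reads of all other genes the share was higher in siLarp1, at 2.21%, 2.41% and 2.15% against 2.66%, 3.22% and 2.63%, also without overlap. Among exosome genes the counts were 53 short tails in 832 siCtl reads (6.37%) and 8 in 271 siLarp1 reads (2.95%). In the other decay genes the shares were 29 in 1177 (2.46%) and 10 in 491 (2.04%). Exosc3 had 11 of 119 reads in siCtl and 1 of 37 in siLarp1, Exosc2 9 of 102 and 0 of 31, and Exosc1 6 of 78 and 0 of 18. By library the exosome shares overlapped, at 3.93%, 9.33% and 5.67% against 2.86%, 4.35% and 1.83%.

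At 48 h the pooled share was 2.71% and 4.91% in siCtl and 4.14% and 6.77% in siLarp1, which overlap, whereas other genes were higher without overlap, at 2.96% and 2.82% against 4.20% and 3.36%. Among the CCR4-NOT deadenylases, Cnot6, Cnot6l, Cnot7 and Cnot8, 0 of 53 siCtl reads and 4 of 55 siLarp1 reads had such a tail at 48 h. The 4 reads came from Cnot8 (2), Cnot6 and Cnot7, and at 24 h these genes had 1 of 175 and 1 of 71. The exosome shares at 48 h were 6.84% in siCtl and 6.70% in siLarp1.

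**Figure D5:**
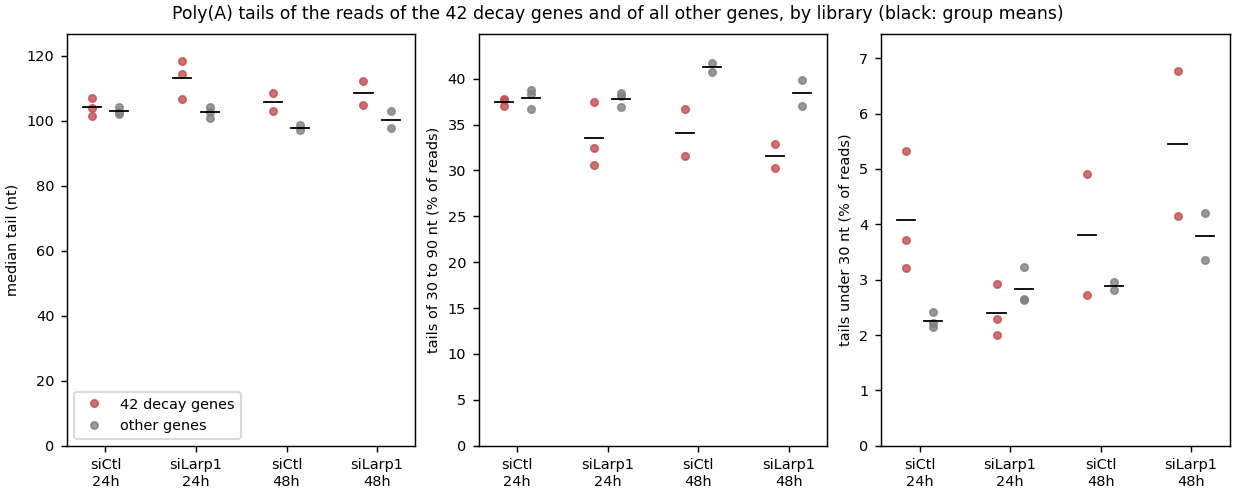
Median tail in nt (left), share of reads with tails of 30 to 90 nt (middle) and share with tails under 30 nt (right) for the pooled reads of the 42 decay genes (red) and of all other genes (grey), 1 point per library with group means in black (3 libraries per treatment at 24 h, 2 at 48 h). At 24 h the share under 30 nt of the decay genes averages 4.08% in siCtl and 2.40% in siLarp1, against 2.26% and 2.84% for other genes.

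The class of 30 to 90 nt held 35.3% of the decay gene reads. It made up 37.0%, 37.7% and 37.7% of them in siCtl and 30.6%, 37.5% and 32.5% in siLarp1 at 24 h, and 36.7% and 31.6% against 32.8% and 30.3% at 48 h, with overlap at both times. The pooled median tail was 107, 101 and 104 nt against 118, 107 and 114 nt at 24 h, where the lowest siLarp1 value lay just under the highest siCtl value, and 103 and 109 nt against 112 and 105 nt at 48 h.

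By role group, 2 of 36 values (9 groups, 4 measures) separated at 24 h and 9 of 36 at 48 h. For single genes across all genes, the shares that separated were 4.69% higher and 6.19% lower in level and 6.61% and 5.11% in median tail at 24 h, and 18.2% and 15.9% in level and 20.9% and 12.9% in median tail at 48 h. No such share was counted for the tail classes, so role groups and single genes cannot be compared over all 4 measures. A single role group value separated in the same direction at both times, the share of 30 to 90 nt tails in the decapping group. It was 32.9%, 30.2% and 27.8% in siCtl against 26.9%, 25% and 22.6% in siLarp1 at 24 h (195 and 97 reads), and 28.6% and 34.4% against 17.5% and 18.5% at 48 h (53 and 67 reads). In siLarp1 at 24 h these were 7 of 26, 10 of 40 and 7 of 31 reads, so single reads decide that separation. How often such a share separates at both times in other sets of genes was not counted. At 48 h this share was also lower without overlap in the siLarp1 reads of all other genes, at 41.7% and 40.8% against 39.9% and 37.0%, while at 24 h it overlapped there. No decapping gene passed the test of this share on its own.

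A separate list of 58 names from the same pathways (older and newer names of some genes included) holds none of the 42 genes and covers further subunits of the exosome, the LSM ring, nonsense-mediated decay, terminal transferases and RNA-binding recruiters of deadenylases. Of these names 51 had reads (6255 in all), and in the limma fits 0 of 30 passed for level at 24 h, 0 of 19 at 48 h and 0 of 36 over both times, with 1 lower, 1 higher and 1 each way at an unadjusted p below the threshold. Their median log2 fold changes were -0.11, 0.00 and -0.06. For median tail 0 of 26, 0 of 18 and 0 of 22 passed, with median differences of -0.21, 7.21 and 1.46 nt.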

How the data were processed

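RNA of P19 cells was sequenced by the authors with Nanopore direct RNA sequencing. Per the study's methods, reads were base called with Guppy, split by barcode with Deeplexicon, aligned to mm10 transcripts of GENCODE vM17 with minimap2 (version 2.20 per the submitters' processing notes), and tail lengths estimated with Nanopolish. The deposited table has 1 line per alignment (2652217 in all), with a tail length in nt, a barcode confidence (a fraction from 0 to 1) and a mapping quality score. It holds reads of every quality tag. Libraries are numbered there, and their group was taken from the condition column, which does not say which labelled replicate each is.

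Reads with the quality tag PASS were kept (81.0% to 84.5% of the alignments to mRNA per library), alignments other than to mRNA and those to mitochondrial genes and pseudogenes were dropped, and each read was counted once per gene, which left 2041443 reads. RPM divides a gene's reads by all kept reads of the library. Tests used genes with at least 30 reads over the libraries compared, and for tails at least 3 reads in 2 libraries per group. Levels were fitted with voom, median tails with read weights in limma 3.58.1 (R 4.3.3), and tail classes with a quasi-binomial model whose dispersion was moderated by limma. P-values were adjusted by the Benjamini-Hochberg method over all genes tested, with a threshold of 0.05. The fits were also run on simulated data with large planted changes, which says nothing about smaller ones. The study calls the libraries of a group biological replicates. Nothing in the labels says whether they came from separate cultures, so p-values measure the spread between these libraries.

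The genes and lists were chosen with earlier results of these data known. Every gene is named with its reads. Values by library are given for the most read gene of each role group and for genes whose libraries separate in both times, of which there were none. The other genes given by library (Tut1, Ddx6, Exosc5 and Cnot6, and short-tail counts of single genes) were named after their values were seen.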

Additional observations from a re-analysis of the deposited data

Results flagged for a closer look

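The summed level of the 9 exosome genes differed between the times. It was lower in all siLarp1 libraries at 24 h, by -131.5 RPM (means 787 in siCtl and 655 in siLarp1, 3 libraries each), and higher in all siLarp1 libraries at 48 h, by 124.4 RPM (means 671 and 795, 2 libraries each). The separation was lost at both times without Exosc5, and at 48 h without Exosc2 or without Exosc10. The difference of the sums between the times was not tested, and for the single genes the test of that difference gave 0 calls. The times also differ in sequencing pool, in depth and in the number of transfections, whose part was not tested. It was the only one of 70 values checked (levels, tails and tail classes of the role groups, and levels and tails of single genes) that went opposite ways without overlap. How often levels went opposite ways without overlap was not counted over all genes. Without overlap, 6.19% of 4800 genes were lower in level at 24 h and 18.2% of 2704 were higher at 48 h. In the other direction the shares were 4.69% at 24 h and 15.9% at 48 h. Whether such a reversal is rare among the 70 values is therefore not known. Groups of 2 and 3 libraries are too small for a check of single outlying libraries.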

How the results depend on the processing

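No decay gene passed the threshold in any of the 16 comparisons under any of the 208 alternative fits, which covered other read filters, a minimum of 100 reads or none, other scaling, other tail limits and leaving out each library. With the library number as a replicate block the count was likewise 0. What same-numbered libraries share beyond the number is not stated. The correlation of their deviations in level was 0.02, 0.13 and 0.12 at 24 h, where each library correlated best with its own number. At 48 h it was 0.12, but with 2 libraries per group the other pairing gives the same value with its sign reversed. For median tail the correlations of same-numbered libraries were -0.015 to 0.0092. Whether the libraries are paired is thus not settled. Over all genes the block raised the calls for level from 0 to 20 (24 h) and from 0 to 4 (48 h). Calls over all genes ranged from 2 to 21 for level over both times, from 0 to 21 for median tail over both times, and from 0 to 10 for the 30 to 90 nt class at 24 h, so counts of calls over all genes depend on the settings. Refits of level and median tail, 1067 in all, covered the most read gene of each role group, Ddx6, Exosc1 and Cnot6. Tut1 and Exosc5 were not in this set. All of the refitted estimates kept their side of the threshold, and 108 of them changed sign.

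Among the read filters and weightings, those that moved a pooled value by more than the spread between libraries did so at 48 h. The difference in median tail, 2.79 nt, was -2.06 nt with genes weighted equally, 7.56 nt with a barcode confidence of at least 0.9 and -2.36 nt with a mapping quality of at least 10, which also removes Cnot1 reads that cannot be placed on 1 transcript. With that last filter the summed level differed by 284 RPM in place of 191 RPM, and the share of 30 to 90 nt tails by 0.96 percentage points in place of -2.56. At 24 h the summed level, -55.8 RPM, was 7.74 RPM without siLarp1 library 19, and the share of 30 to 90 nt tails, -3.99 percentage points, was -2.54 without it. The lower pooled share under 30 nt at 24 h (-1.68 percentage points) ranged from -2.34 to -0.97 over the read filters and from -2.12 to -1.06 with 1 library left out. The difference was smallest with reads of all quality tags (-0.97) and, among libraries left out, without siCtl library 21 (-1.06). The exosome sums, checked with alternatives chosen after seeing the data, kept the sign of the difference of means when a filter changed or a library or any 1 gene was left out, with differences of -173 to -89.5 RPM at 24 h and 41.1 to 208 RPM at 48 h. The pooled median tail at 48 h ranged from -0.84 to 6.42 nt with 1 library left out, and the pooled 30 to 90 nt share from -5.09 to -0.04 percentage points. Depth limits all of this: 13 genes had fewer than 30 reads.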
